A study of Mus musculus with 4 samples.

Results

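The 10 genes described here encode the granzymes, perforin and other proteins of the cytotoxic granule: Gzma, Gzmb, Gzmk, Gzmm, Prf1, Srgn, Nkg7, Ctsw, Ctsc and Lamp1. They were taken by symbol from the 55401 genes of each deposited table, and all 10 were found. RNA was sequenced from lung CD8+ T cells of C57BL/6J mice, gated on CD3 and CD8 in the sort. The mice belonged to 2 models, labelled IPF-LC and LC with neither name spelled out, and were given either isotype antibody or anti-CD4 depleting antibody. Each combination of model and antibody was 1 library, called here isotype or CD4-depleted with the name of the model. The series title places the work in antitumour effects of the depleting antibody in mice with lung fibrosis and names CD8+ T cell activation. The number of mice behind a library, their age and the timing of the antibody are not given in the sources used here. No value has a replicate error, and differences between mice cannot be told apart from differences between groups.

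A cytotoxic T cell kills by releasing the content of secretory granules, which are modified lysosomes, into the contact with its target. Perforin forms pores in the target membrane, and granzymes, a family of serine proteases, enter through them and cleave proteins that start cell death. Granzymes are made as inactive precursors that cathepsin C activates, and they are stored in the granule bound to the proteoglycan serglycin. Effector and memory CD8 T cells differ in which granzymes they make: Gzmb is typical of armed effector cells, and Gzmk of a memory or precursor-like state. Natural killer cells and gamma delta T cells use the same granule proteins, and cathepsins and lysosomal membrane proteins are abundant in macrophages too.

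Total counts lay between 14946569 and 16217672 per library. The unit of level is CPM (TMM-scaled counts-per-million of the library total). Where 4 values are given they stand in 1 order: first the IPF-LC model with isotype antibody and then after depletion, next the LC model in the same way. Ratios are log2 values of 1 library over another, with a 95% interval from an exact conditional binomial test. That interval covers counting error only, since the reads carry no molecular identifiers and the groups no replicates. The sorted cells carried CD8 transcripts in each library, with Cd8a and Cd8b1 together at 1490, 1007, 1169 and 1280 CPM, and 7 T cell markers summed to between 2375 and 2935 CPM. Markers of other cells were also found, at unequal levels. For macrophages and monocytes 20 markers gave a sum of 2933, 1010, 3291 and 170 CPM. Most of it was Lyz2 (2408, 788, 2089 and 33.4 CPM), except in the CD4-depleted LC library. The largest part there was Ccr2 (15.5, 60.25, 76.3 and 102 CPM). The 11 natural killer cell markers summed to 201, 131, 333 and 43.4 CPM. The 5 defining natural killer markers among them summed to 30.1, 17.5, 38.4 and 8.80 CPM, and Ncr1, the most specific of these, was at 0 counts in both CD4-depleted libraries. Neutrophil markers, at 97.4 CPM, stood out in the isotype LC library, against 1.40 to 7.04 CPM elsewhere.

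Proximal promoters of 4 of the genes, Gzma, Gzmk, Gzmb and Prf1, are shown because T-bet, Eomes, Runx3 and AP-1 factors are known to act on cytotoxic genes. Each line gives the 250 bases before the annotated start, read along the gene's strand, from RefSeq on build GRCm38.p6. The deposited tables use GRCm39, so these coordinates were not joined to any value. Capitals mark matches to the T-box core AGGTGT, which reads ACACCT on the other strand, to the RUNX core TGTGGT, which reads ACCACA there, and to the palindromic AP-1 motif TGANTCA.
Gzma, chr13:113100982-113101231, minus strand: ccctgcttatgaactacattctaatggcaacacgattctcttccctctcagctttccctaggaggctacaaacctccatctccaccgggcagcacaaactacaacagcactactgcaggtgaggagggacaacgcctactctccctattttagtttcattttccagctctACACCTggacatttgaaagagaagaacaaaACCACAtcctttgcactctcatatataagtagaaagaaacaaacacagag
Gzmk, chr13:113180966-113181215, minus strand: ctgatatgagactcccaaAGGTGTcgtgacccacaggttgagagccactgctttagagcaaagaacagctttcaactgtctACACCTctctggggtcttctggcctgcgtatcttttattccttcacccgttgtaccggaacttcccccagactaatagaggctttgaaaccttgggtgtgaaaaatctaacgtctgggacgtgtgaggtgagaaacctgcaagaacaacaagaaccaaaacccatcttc
Gzmb, chr14:56262335-56262584, minus strand: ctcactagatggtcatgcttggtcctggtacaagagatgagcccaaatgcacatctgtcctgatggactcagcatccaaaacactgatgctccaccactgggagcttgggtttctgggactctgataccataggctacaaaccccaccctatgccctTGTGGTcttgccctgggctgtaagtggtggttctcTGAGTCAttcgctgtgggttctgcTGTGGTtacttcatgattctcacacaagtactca
Prf1, chr10:61297586-61297835, plus strand: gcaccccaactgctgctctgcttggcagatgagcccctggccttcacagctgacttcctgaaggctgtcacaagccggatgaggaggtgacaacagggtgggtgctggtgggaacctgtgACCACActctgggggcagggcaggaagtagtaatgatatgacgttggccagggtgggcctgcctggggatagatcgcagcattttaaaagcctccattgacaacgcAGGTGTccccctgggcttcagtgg
Gzma had a T-box match starting at -80 from the start and a RUNX match at -50, both on the opposite strand. Gzmk had T-box matches at -232 and -169, the latter on the opposite strand, and no RUNX match. Gzmb had RUNX matches at -93 and -34 and an AP-1 match at -58, and no T-box match. Prf1 had a RUNX match at -130 on the opposite strand and a T-box match at -24. None of these 4 windows held the STAT motif TTCNNNGAA, and no marked matches overlapped. Among windows not shown, those of Ctsc, Nkg7 and the first start of Gzmm held it. That of Ctsc had no T-box, RUNX or AP-1 match. The window of Nkg7 had a T-box match at -14 and a RUNX match at -83 on the opposite strand. RUNX matches on the opposite strand were also in the first start of Gzmm (-247), the second start of Srgn (-202) and Lamp1 (-22). Among 32851 RefSeq promoter windows of this length, 11.8% held the T-box core on either strand, 14% the RUNX core, 6.75% the AP-1 motif and 7.02% the STAT motif. A match is a string of letters, not a bound site. Promoter windows were found for 9 of the 10 genes, Ctsw being the exception. Gzma and Gzmk are adjacent coding genes on chromosome 13 in RefSeq (GRCm38.p6), and Gzmb lies on chromosome 14 beside Gzmn, Gzmf and Gzmc, which belong to the same protease family.

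Gzmk (ENSMUSG00000042385), which encodes a tryptase-like granzyme, varied most of the 10. It was measured at 5.70, 34.4, 28.5 and 15.4 CPM, from 89, 536, 441 and 242 counts. The isotype IPF-LC library was thus the low one and the CD4-depleted IPF-LC library the high one, with the LC libraries between them. The depletion ratio in IPF-LC mice was 2.59 (2.27 to 2.93), a 6.01-fold higher level, and that in LC mice was -0.89 (-1.12 to -0.66). The difference between these ratios was 3.47 (3.08 to 3.87, from counting error). Gzmb (ENSMUSG00000015437), which encodes the aspartate-cleaving granzyme that activates caspases, was measured at 97.3, 196, 283 and 160 CPM. It was lowest in the isotype IPF-LC library as well, but highest in the isotype LC library. Its depletion ratio was 1.01 (0.92 to 1.10) in IPF-LC mice and -0.82 (-0.89 to -0.75) in LC mice, a difference of 1.83 (1.72 to 1.95). All neighbouring libraries in the order of levels of Gzmb, and of Gzmk, differed beyond the counting interval. In bulk RNA, fewer cells that carry a transcript and less of it per cell cannot be told apart, here or for the other genes.

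Gzma (ENSMUSG00000023132), which encodes a tryptase that acts without caspases, followed another pattern. It was measured at 85.9, 69.9, 108 and 39.5 CPM, so that the CD4-depleted library was the lower one in both models. The depletion ratio was -1.45 (-1.58 to -1.31) in LC mice. In IPF-LC mice it was -0.30 (-0.42 to -0.18), and 0.27 when the libraries were scaled to Cd8a and Cd8b1. Gzmm (ENSMUSG00000054206), which encodes a granzyme that cleaves after methionine and leucine and is best known from natural killer cells, was low at 9.28, 10.2, 10.7 and 8.42 CPM. With 132 to 166 counts, no neighbouring libraries in its order of levels differed beyond counting error. The lowest differed from the highest by a ratio of -0.35 (-0.69 to -0.01). Its mean of 9.66 CPM placed Gzmm, alone of the 10, below the minimum of 10 CPM that was used for counts over all genes. The 6 other granzyme genes summed to 33, 20, 98 and 33 counts. Of these, Gzmc had 33, 5, 32 and 33 counts, Gzmf had 51 with isotype LC and 0 elsewhere, and Gzmg and Gzmn had none, so their level was under 3 counts per library. Reads of such near-identical genes can be split uncertainly by the counting.

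**Figure D1:**
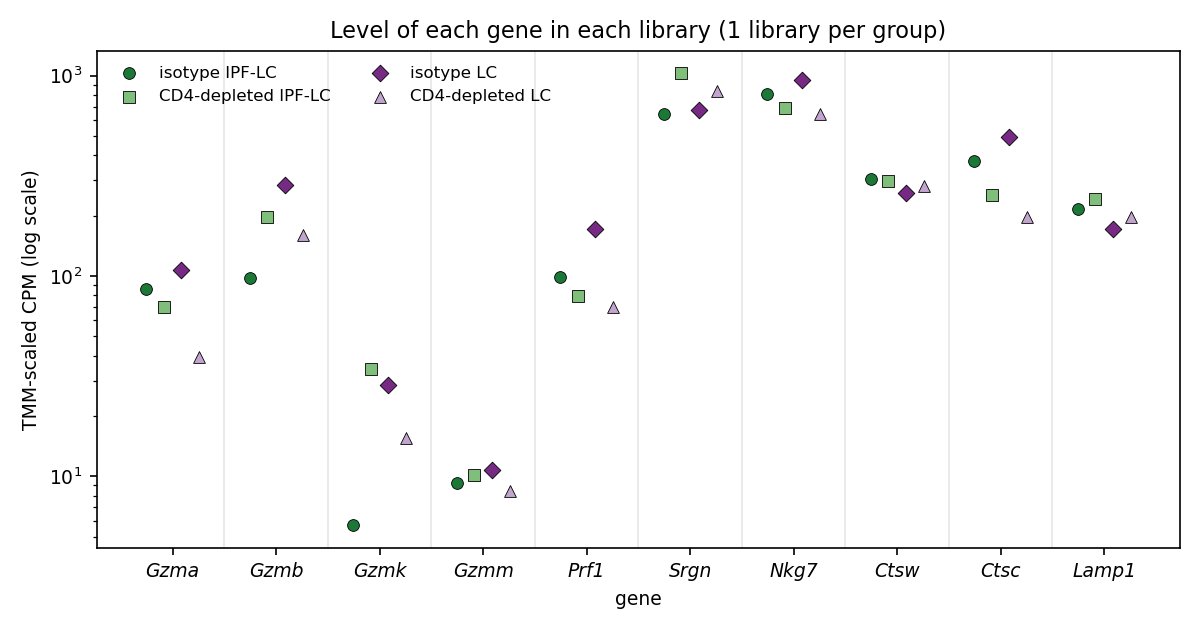
Level of each of the 10 genes in each library, as TMM-scaled CPM on a log scale, with 1 point per library and no error bar since each group has 1 library. Gzmk spans from 5.70 to 34.4 CPM, whereas the points of Ctsw lie between 258 and 306 CPM.

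Because ratios between genes inside a library do not depend on how libraries are scaled, the make-up of the granzyme transcripts was set out per length, in TPM (transcripts-per-million). The granzymes summed to 338, 452, 693 and 322 TPM. Gzma made up 58.3% of them in the isotype IPF-LC library, and 34.1, 37.5 and 28.0% in the other 3, in order. Gzmb made up 33.4, 48.4, 50.04 and 57.5%, and Gzmk 3.00, 13.2, 7.80 and 8.53%. The isotype IPF-LC library was thus the one in which Gzma exceeded Gzmb, with a Gzma to Gzmb ratio of 1.75 (1.62 to 1.88). After depletion in IPF-LC mice this ratio was 0.704 (0.657 to 0.755). In LC mice it was 0.748 (0.707 to 0.792) with isotype antibody and 0.487 (0.445 to 0.532) after depletion. It was lower in the depleted library of either model. The neighbouring genes Gzmk and Gzma had a ratio of 0.0514 (0.0410 to 0.0637) in IPF-LC mice with isotype antibody and of 0.386 (0.347 to 0.428) after depletion. In LC mice that ratio was 0.208 with isotype antibody and 0.305 after depletion. The intervals cover counting error only.

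**Figure D2:**
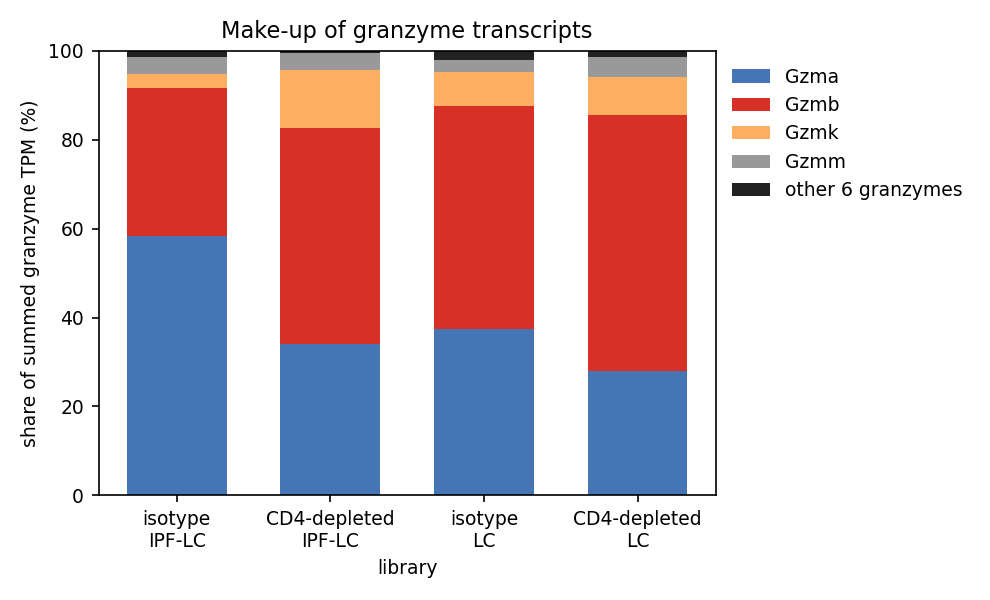
Share of the summed granzyme TPM taken by Gzma, Gzmb, Gzmk, Gzmm and the 6 other granzymes in each library. Gzma takes the largest share in the isotype IPF-LC library (58.3%) and Gzmb in the other 3 (48.4 to 57.5%).

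Prf1 (ENSMUSG00000037202), which encodes perforin, was measured at 98.3, 79.7, 171 and 70.3 CPM. The isotype LC library stood above the other 3, and its level was 2.44-fold that of the CD4-depleted LC library. The depletion ratio was -1.29 (-1.39 to -1.18) in LC mice, whereas in IPF-LC mice it was -0.30 (-0.41 to -0.19), and 0.26 on the scale of Cd8a and Cd8b1. Perforin and Gzmb did not keep a fixed proportion. The Gzmb to Prf1 ratio in TPM was 1.87 (1.74 to 2.01) in the isotype IPF-LC library and 4.55 (4.26 to 4.86) after depletion, and 3.04 (2.90 to 3.19) and 4.24 (3.95 to 4.56) in the LC libraries. The Gzma to Prf1 ratio moved less with depletion, at 3.26 and 3.20 in IPF-LC mice and 2.28 and 2.06 in LC mice. It differed more between the models than between the antibodies.

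Srgn (ENSMUSG00000020077) encodes serglycin, which packs granzymes and perforin in the granule matrix. It was measured at 646, 1026, 671 and 835 CPM, higher in the depleted library of both models, with ratios of 0.67 (0.63 to 0.70) and 0.32 (0.28 to 0.35). Nkg7 (ENSMUSG00000004612), which encodes a granule membrane protein needed for efficient degranulation, was measured at 810, 692, 948 and 644 CPM. Its depletion ratio was -0.56 (-0.59 to -0.52) in LC mice, and -0.23 (-0.26 to -0.19) in IPF-LC mice, where it was 0.34 on the scale of Cd8a and Cd8b1. Per length, Nkg7 and Srgn were the most abundant of the 10 in all 4 libraries, with Nkg7 at 1752 to 2752 TPM, between rank 40 and rank 83 of all genes, and Srgn at 1275 to 1978 TPM. Lamp1 (ENSMUSG00000031447) encodes the lysosomal membrane glycoprotein that appears at the cell surface when granules are released. It was measured at 216, 242, 172 and 197 CPM. Its depletion ratio was 0.16 (0.09 to 0.23) in IPF-LC mice and 0.20 (0.12 to 0.28) in LC mice, the latter being -0.05 on the T cell marker scale.

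Ctsc (ENSMUSG00000030560), which encodes the dipeptidyl peptidase that activates granzyme precursors, was measured at 375, 253, 495 and 196 CPM. It was lower in the depleted library of both models, with ratios of -0.57 (-0.63 to -0.51) in IPF-LC mice and -1.34 (-1.40 to -1.28) in LC mice. On the scale of Cd8a and Cd8b1 the former was close to 0, at -0.01. The length that the authors' quantification assigned to Ctsc varied from 2526 to 2693 bases between libraries, so its TPM and CPM do not move in exact step. Ctsw (ENSMUSG00000024910), which encodes a cathepsin found in cytotoxic lymphocytes, varied least of the 10, at 306, 298, 258 and 281 CPM. The depletion ratio of Ctsw was -0.04 (-0.10 to 0.02) in IPF-LC mice and 0.12 (0.06 to 0.19) in LC mice, and each changed sign on the scales of T cell markers and of Cd8a and Cd8b1. Between isotype and CD4-depleted IPF-LC, the neighbours at the top of its order, no difference in Ctsw was detectable at this depth.

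The range of levels thus set the members apart from each other. The highest library exceeded the lowest by 6.04-fold for Gzmk, 2.91-fold for Gzmb, 2.73-fold for Gzma, 2.53-fold for Ctsc and 2.44-fold for Prf1. It did so by 1.59-fold for Srgn, 1.47-fold for Nkg7, 1.41-fold for Lamp1, 1.28-fold for Gzmm and 1.19-fold for Ctsw. The median gene among the 8433 with a mean of at least 10 CPM spanned 1.49-fold. Gzmk, Gzmb, Gzma, Ctsc, Prf1 and Srgn therefore lay above that median, while Nkg7, Lamp1, Gzmm and Ctsw lay below it.

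**Figure D3:**
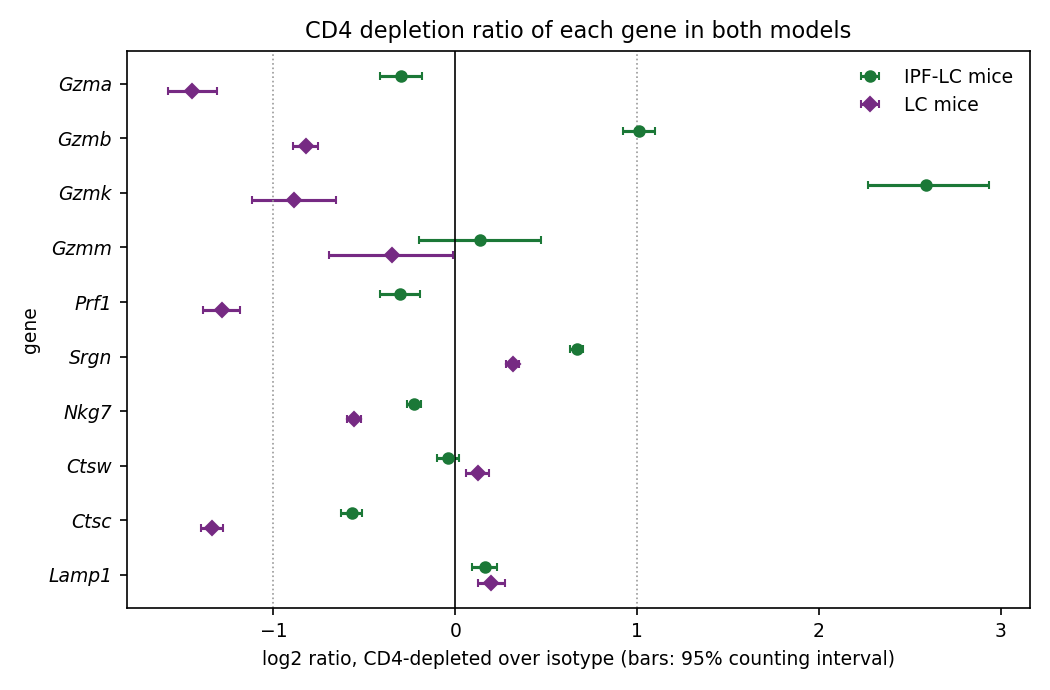
Log2 ratio of the CD4-depleted over the isotype library for each gene in IPF-LC mice (circles) and LC mice (diamonds), with bars for the 95% counting interval and dotted lines at 2-fold. Gzmb (1.01 and -0.82) and Gzmk (2.59 and -0.89) lie on opposite sides of 0 in the models.

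Depletion in IPF-LC mice left 2 of the 10 genes, Gzmb and Gzmk, at least 2-fold higher than with isotype antibody and 0 at least 2-fold lower. Of all 8433 genes, 4.08% were higher and 6.02% lower by this measure, 10.1% in all. Gzmb lay at the edge of that limit: with library totals, or with TPM in place of CPM, or when the whole interval had to pass 2-fold, only Gzmk remained. The ratios of the 10 genes had a median of 0.05, against 0.0016 over all 8433 genes. Without Gzmm, which lies under their minimum of 10 CPM, the median was -0.04, so its sign rests on that gene. On the TMM scale 5 of the 10 were above 0, where 50.1% of all genes were. The genes therefore went both ways: Gzmk, Gzmb, Srgn, Lamp1 and Gzmm were above 0, though the interval of Gzmm (-0.20 to 0.47) spanned it. Ctsc, Prf1, Gzma, Nkg7 and Ctsw were below 0, and of these Prf1, Gzma, Nkg7 and Ctsw turned above 0 on the scale of Cd8a and Cd8b1.

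In LC mice, 3 of the 10 genes, Gzma, Prf1 and Ctsc, were at least 2-fold lower after depletion and 0 were at least 2-fold higher. Of all 8433 genes, 5.85% were lower and 2.59% higher by this measure, 8.43% in all. The median of the 10 was -0.69, against 0.06 over all genes, and 3 of the 10 were above 0, where 56.1% of all genes were. Those 3 were Srgn, Lamp1 and Ctsw, the last of these turning below 0 on 2 scalings and Lamp1 on 1. All 4 granzymes, perforin, Nkg7 and Ctsc had intervals below 0. With the T cell markers as the scale, 5 genes were at least 2-fold lower. The comparisons in IPF-LC and LC mice share no library.

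The models were next compared with each antibody. With isotype antibody, 2 of the 10 genes, Gzmk at -2.32 (-2.67 to -1.99) and Gzmb at -1.54 (-1.63 to -1.46), were at least 2-fold lower in IPF-LC than in LC mice, and 0 were at least 2-fold higher. Of all genes, 4.1% were lower and 1.91% higher by this measure. The median of the 10 was -0.28, against 0.02 over all genes. Only Lamp1 (0.33) and Ctsw (0.25) were above 0, where 52.5% of all genes were, and both lay below it on the scale of Cd8a and Cd8b1, Ctsw also on that of T cell markers. Prf1 had a ratio of -0.80 (-0.89 to -0.71) and Ctsc of -0.40 (-0.45 to -0.35). After depletion, all 10 ratios of IPF-LC over LC mice were above 0, where 49.9% of all genes were. Most were small: the median was 0.29, against 0 over all genes, and the interval of Gzmm spanned 0. Gzmk, at 1.15 (0.93 to 1.38), was the 1 gene that passed 2-fold upward, and 0 passed it downward, beside 3.3% and 2.57% of all genes (5.87% in all). Gzma followed at 0.82 (0.68 to 0.97), and Gzmb was at 0.29 (0.22 to 0.37). The model comparisons share libraries with the depletion comparisons, so none of these counts is independent of the others.

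The difference between the depletion ratios, IPF-LC minus LC, was at least 1 for 3 of the 10 genes: Gzmk at 3.47, Gzmb at 1.83 and Gzma at 1.15 (0.97 to 1.32). It was at or below -1 for 0 of them, beside 8.05% and 6.33% of all genes. For 8 of the 10 it was above 0, as for 48.6% of all genes. Prf1 came next at 0.98 (0.83 to 1.13), then Ctsc at 0.77 (0.68 to 0.85) and Gzmm at 0.49 (0.02 to 0.95). Srgn and Nkg7 had differences of 0.35 and 0.33. Ctsw (-0.16) and Lamp1 (-0.04) were below 0, and turned above 0 on 2 and 3 of the other scalings. This difference is the interaction of model and antibody, and without replicates it was not tested.

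The scale matters because Cd8a and Cd8b1 were themselves lower after depletion in IPF-LC mice, at -0.55 and -0.57. With their summed counts as the scale, the median of all 8433 genes moved by 0.56 in the depletion ratio of IPF-LC mice, by -0.13 in that of LC mice, by -0.35 and 0.35 in the model ratios and by 0.70 in the difference. With T cell markers as the scale, these shifts were 0.12, -0.25, -0.31, 0.07 and 0.38. Among genes at least 2-fold apart after depletion in IPF-LC mice, 40.4% were higher on the TMM scale, 54.2% on the T cell marker scale and 89.6% on the scale of Cd8a and Cd8b1. In LC mice these shares were 30.7, 13.4 and 21.1%. They were 31.8, 6.64 and 5.21% for IPF-LC over LC with isotype antibody, 56.2, 65.2 and 88.7% after depletion, and 56.0, 86.5 and 95.9% for the difference. On the scale of Cd8a and Cd8b1 the ratios of Gzma, Prf1 and Nkg7 in IPF-LC mice, at 0.27, 0.26 and 0.34, lay below that median of all genes, as they did on the TMM scale.

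The levels of 6 of the 10 genes, Gzma, Gzmb, Gzmm, Prf1, Nkg7 and Ctsc, were highest in the isotype LC library, where 21.1% of all genes were. Those of 5, Gzma, Gzmm, Prf1, Nkg7 and Ctsc, were lowest in the CD4-depleted LC library, beside 20.4% of all genes. For Gzmm neither place was beyond counting error, and in TPM it was lowest in the isotype IPF-LC library, at 13.2. The whole order, isotype LC over isotype IPF-LC over CD4-depleted IPF-LC over CD4-depleted LC, was shared by Gzma, Prf1, Nkg7 and Ctsc, and 5.49% of all genes had it. The summed markers of macrophages and monocytes, of natural killer cells and of neutrophils stood in this order as well. Those of neutrophils were at 97.4, 7.04, 3.59 and 1.40 CPM from the highest down. Lyz2 alone, much of the macrophage sum, was higher in isotype IPF-LC than in isotype LC. In the same order of libraries, endothelial, fibroblast and epithelial markers summed to 292.5, 217.5, 147.5 and 147.4 CPM, level in the depleted libraries. Pecam1 made up 144.7, 133.7, 136.5 and 128.5 CPM of these sums, most of them in the depleted libraries. Most other markers of the list were lower in the depleted library of both models. Kdr was at 39.6, 25.2, 0 and 3.76 CPM and Dcn at 37.2, 10.9, 0 and 0 CPM. Epcam was not lower in IPF-LC mice, at 3.39 CPM with isotype antibody and 4.36 CPM after depletion. Markers of B cells, at 30.7, 38.3, 19.8 and 22.3 CPM, did not keep the order. Nor did those of mast cells and basophils, at 51.8, 4.35, 5.39 and 3.00 CPM. In percent of the isotype LC library, Prf1 was at 57.4% in isotype IPF-LC, 46.5% in CD4-depleted IPF-LC and 41.0% in CD4-depleted LC. Gzma was at 79.85, 64.9 and 36.7%, Ctsc at 75.8, 51.0 and 39.5%, and Nkg7 at 85.4, 73.0 and 67.95%. The 11 natural killer markers were at 60.3, 39.2 and 13.02% and the macrophage markers at 89.1, 30.7 and 5.17%. The 5 defining natural killer markers alone were at 78.4, 45.6 and 22.9%. Much of the sum of the 11 in the isotype LC library was Tyrobp (84.2 CPM) and Fcer1g (112 CPM), which are not among these 5. Tyrobp, Fcer1g and Klre1 each stood in the order of the sum, and no other marker of the 11 did in full. Klrk1, Klrb1c, Klra8 and Klra9 were higher in isotype IPF-LC than in isotype LC. Klrk1 was at 84.8 and 74.9 CPM in these libraries, and Klrb1c at 16.3 and 16.05 CPM. Klrk1, which CD8 T cells express as well, made up 26.9 of the 43.4 CPM of natural killer markers in the CD4-depleted LC library. Against the 11 natural killer markers at 333 CPM and the 20 macrophage markers at 3291 CPM, Prf1 stood at 171 CPM in the isotype LC library. The part of these cells in the levels of the 4 genes was not tested.

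**Figure D4:**
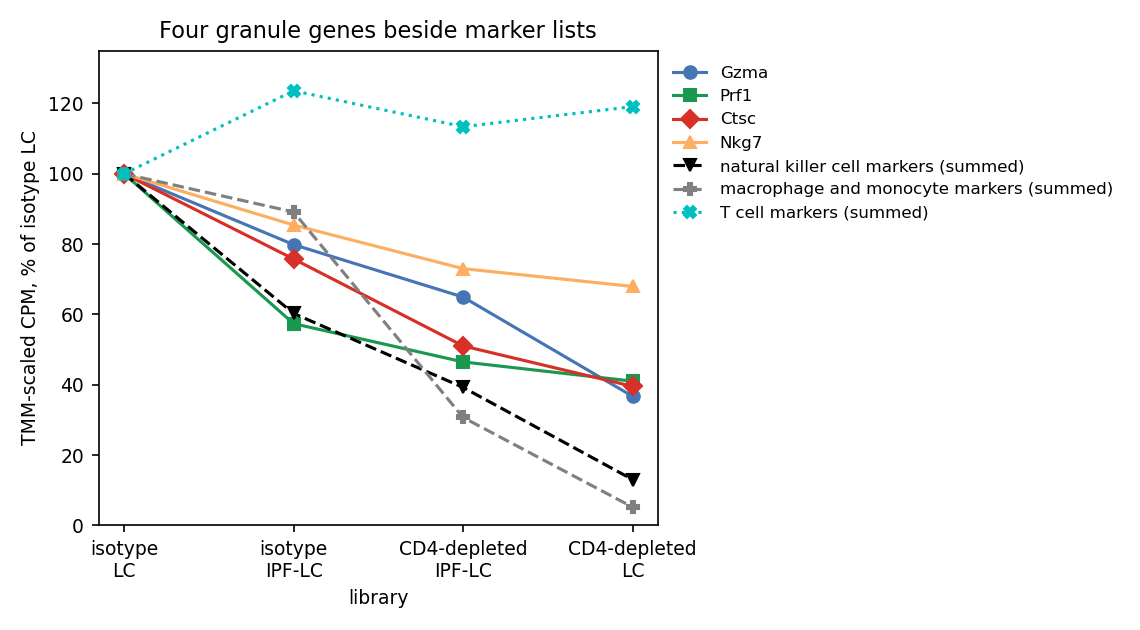
Gzma, Prf1, Ctsc and Nkg7 beside the summed markers of natural killer cells, of macrophages and monocytes and of T cells, each as a percentage of its own TMM-scaled CPM in the isotype LC library, with lines joining the points for legibility only. The 4 genes and the first 2 marker sums stand in the same order, while the T cell markers lie between 100 and 124%.

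Gzmb and Gzmk did not follow that order, being lowest in the isotype IPF-LC library. The sum of the 7 regulatory T cell markers was lowest there too, at 216, 586, 345 and 522 CPM. Most of it in that library was Tnfrsf18, at 148 CPM. Foxp3, at 1.47, 29.3, 3.88 and 32.5 CPM, was higher after depletion in both models, while Gzmb and Gzmk were lower in LC mice. Ikzf4, at 6.01, 30.1, 4.47 and 4.53 CPM, was the only marker of this list that was not lowest in the isotype IPF-LC library. Those of gamma delta T cells, of which 7 of 10 were in the tables, summed to 75.7, 53.9, 57.1 and 37.6 CPM. The 8 proliferation genes summed to 216, 332, 337 and 749 CPM, lowest in the isotype IPF-LC library and highest in the CD4-depleted LC library. Cd4 itself had 73, 0, 12 and 16 counts. The 3 CD4 T cell markers, Cd4, Zbtb7b and Cd40lg, summed to 8.83, 5.52, 5.18 and 15.2 CPM. Of these, Zbtb7b had 28, 3, 24 and 27 counts. Cd40lg had 37, 83, 44 and 195 counts, higher after depletion in both models. The part of other T cells in the levels of Gzmb and Gzmk was not tested.

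An additive model across the 4 libraries, with terms for model and antibody, gave the only test that spans libraries. In edgeR's quasi-likelihood test with Benjamini-Hochberg adjustment over 13045 genes, 0 of the 10 genes and 0.0% of all genes were called for depletion at an adjusted p under 0.05. Unadjusted p lay under 0.05 for 1214 genes, or 9.31%, among them Ctsc, Srgn and Prf1. The depletion term was -0.95 for Ctsc (SE 0.242, adjusted p = 0.464 in edgeR), -0.80 for Prf1 (SE 0.291, adjusted p = 0.532), 0.49 for Srgn (SE 0.179, adjusted p = 0.532) and -0.87 for Gzma (SE 0.335, adjusted p = 0.537). For Gzmk it was 0.83 with an SE of 1.01 (adjusted p = 0.877 in edgeR) and for Gzmb 0.09 with an SE of 0.476 (adjusted p = 0.98). DESeq2 in the same design called 480 genes, 3.68%, of which 380 were lower and 100 higher. Ctsc was the 1 member among them, at -0.97 (SE 0.236, adjusted p = 0.00257 in DESeq2), and limma-voom called 0 genes. For the model term, edgeR called 0 of the 10 and 0.0% of all genes, with 244 genes at an unadjusted p under 0.05. DESeq2 called 5 genes there (0.0383%), all lower and none of the 10, and limma-voom called 0. With 4 libraries the residual is the interaction itself, so this test counts any real interaction as error.

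Genes of the same pathway, from lists drawn up for the granule's biology, are given by how many passed 2-fold, among those over the minimum of 10 CPM, and by their median over all members in the tables. Of the 7 protease inhibitors and activators over that minimum, 1 was at least 2-fold higher and 1 lower after depletion in IPF-LC mice, and 0 were higher and 3 lower in LC mice. Of all genes, 4.08% were higher and 6.02% lower in IPF-LC mice, and 2.59% and 5.85% in LC mice. The medians over 8 genes were -0.06 and -1.14. Serpinb9, the inhibitor that protects killer cells from their own granzyme B, was measured at 123.5, 156, 241.5 and 83.4 CPM, with ratios of 0.33 (0.25 to 0.42) and -1.53 (-1.63 to -1.44). Like Gzmb it was lower after depletion in LC mice and higher in IPF-LC mice. Ctsh, a cathepsin able to activate granzyme B, had ratios of -1.06 and -4.27, and Ctsl ratios of -0.64 and -1.62. Both are among the 3 lower genes in LC mice. Cathepsins are abundant in macrophages too, and the summed macrophage and monocyte markers were lower in the same libraries. The part of macrophages in these ratios was not tested. Serpina3g, a serine protease inhibitor of T cells, was the 1 higher gene in IPF-LC mice at 1.49, and is named after its value was seen.

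Among transcription factors of the cytotoxic programme, 1 of the 13 over the minimum was at least 2-fold higher after depletion in IPF-LC mice and 0 were lower, with a median over 14 genes of 0.56. In LC mice 0 were higher and 1 lower, with a median of -0.24. These counts stand beside 4.08% higher in IPF-LC mice and 5.85% lower in LC mice over all genes. Bhlhe40, which supports cytokine production and residency of T cells, was measured at 236, 922, 816 and 688 CPM, with ratios of 1.97 (1.91 to 2.02) and -0.25 (-0.28 to -0.21). Like Gzmk and Gzmb, it was lowest in the isotype IPF-LC library. Eomes, a T-box factor of cytotoxic and memory cells, was measured at 36.5, 53.6, 67.0 and 34.0 CPM, with ratios of 0.55 (0.40 to 0.71) and -0.98 (-1.13 to -0.83). Zeb2, a factor of terminal effector cells that myeloid cells express as well, was measured at 6.91, 10.2, 45.9 and 3.96 CPM, with ratios of 0.56 and -3.53. Tbx21, which encodes T-bet, and Runx3 are named after their values were seen, since their motifs were searched above: Tbx21 had ratios of 0.91 and -0.86, and Runx3 of 0.03 and -0.16.

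Of 17 exocytosis genes of the release machinery over the minimum, 2 were at least 2-fold higher and 0 lower after depletion in IPF-LC mice, and 0 were 2-fold apart in LC mice. Of all genes, 10.1% and 8.43% were 2-fold apart in either direction. The list had medians of 0.19 and -0.18 over 18 genes. Sytl3, a synaptotagmin-like protein that binds Rab27, had ratios of 1.07 (0.91 to 1.24) and -0.58 (-0.71 to -0.44), and Stx11, the syntaxin of granule fusion, ratios of 1.05 (0.88 to 1.22) and 0.09 (-0.03 to 0.20). Sytl1, of the same family as Sytl3, had ratios of 0.30 and 0.92. Of 16 genes of granule and lysosome sorting and membrane, 0 were higher and 4 lower by 2-fold in IPF-LC mice, and 0 higher and 7 lower in LC mice, where 6.02% and 5.85% of all genes were lower. The medians of this list were -0.46 and -0.94. Cd63, a tetraspanin of granules that macrophages express as well, was measured at 62.4, 10.8, 42.8 and 0.702 CPM. The lysosomal proteases Ctss and Ctsz, both abundant in macrophages, had ratios of -1.29 and -1.71, and of -0.64 and -1.87. The summed macrophage and monocyte markers were lower in the same libraries, and their part in this list was not tested.

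**Figure D5:**
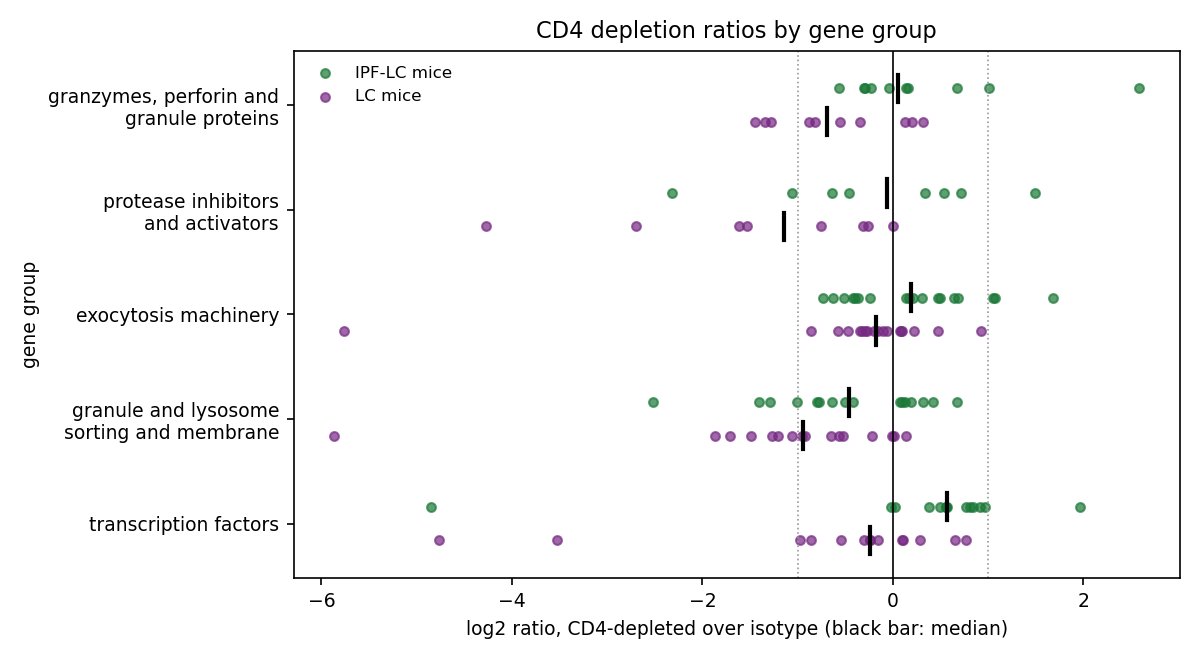
Depletion ratios (log2, CD4-depleted over isotype) of the 10 genes and of the members of 4 pathway lists found in the tables, in IPF-LC mice (upper points of each group) and LC mice (lower points), with black bars at the medians. The medians of the 10 genes are 0.05 and -0.69, and those of the transcription factors 0.56 and -0.24.

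Finally, the genes whose levels over the 4 libraries were most like those of Gzmk, Gzmb and Prf1 were sought among 8183 genes, by the largest difference between centred log2 levels. With 4 values per gene, such likeness is a description of these libraries. Nearest to Gzmk were Rgs16, a regulator of G protein signalling (largest difference 0.16), Il12rb2, a chain of the interleukin-12 receptor (0.17), and Ccr8, a chemokine receptor (0.22). Rgs16 was measured at 24.6, 154, 148 and 71.6 CPM. Nearest to Gzmb were Trib1 (0.11), Uap1l1 (0.11) and Sytl3 (0.15), the last of them from the exocytosis list. Among the genes nearest to Prf1 were Lamp2 (0.08) and Cln8 (0.12), which encode a lysosomal membrane protein and a membrane protein linked to lysosome biogenesis. Lamp2 was measured at 91.6, 68.3, 145 and 62.7 CPM. Among the 10 genes themselves, the closest pairs by this measure were Ctsw with Lamp1 (0.17), Gzmm with Nkg7 (0.23), Gzma with Ctsc (0.27) and Prf1 with Ctsc (0.28). Gzmk and Gzma, though neighbours on the chromosome, were among the most distant (1.85).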

How the data were processed

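RNA of sorted lung CD8+ T cells was made into 4 polyA RNA libraries, 1 per group, after SMART-Seq v4 reverse transcription, per the labels' protocols. Tools named in the submitters' processing notes are RSEM 1.3.3, STAR 2.7.11a, MultiQC 1.25.2 and fastp 0.23.4, with build GRCm39. Their roles and the annotation release are not given in the sources used here. The deposited expected counts are RSEM-style estimated counts without normalisation. The deposited TPM values are scaled by gene length to a fixed sum per library. The deposited FPKM values were not used, and the gene length per the file headers was used as given.

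Libraries were grouped by the labels alone. Expected counts were rounded (5.49 to 5.89% were not whole) and scaled with TMM in edgeR 4.0.16. Ratios used a prior count of 0.5, counts of genes a mean of at least 10 CPM, and a minimum of 2-fold. No p-value is given between a pair of libraries. The additive model (R 4.3.3, edgeR after its expression filter, DESeq2 1.42.0, limma 3.58.1) was two-sided, at an adjusted p of 0.05. The 10 genes and the lists were chosen with earlier results of these data known. Named are the 10 genes, up to 3 genes per pathway list with the largest depletion ratio, and the 3 genes nearest in pattern to Gzmb, Prf1 and Gzmk. Of these, 1 gene is not reported here. Other scalings, TPM with a pseudocount of 0.1, a prior count of 2, unrounded counts, other minimums and other tools were tried.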

Additional observations from a re-analysis of the deposited data

Results flagged for a closer look

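Gzmb and Gzmk, and 5 of the pathway genes named for their large depletion ratios, had depletion ratios of opposite sign in the models. Both counting intervals were off 0, and the genes are listed for that reason. Serpina3g (1.49 and -0.75), Tbx21 (0.91 and -0.86) and Runx3 (0.03 and -0.16) had ratios of opposite sign too. They were named after their values were seen and are not in this list. The sign rests on 1 library per group, and the difference between models was not tested. The differences of the log2 ratios, IPF-LC minus LC, were 1.83 for Gzmb (1.01 and -0.82) and 3.47 for Gzmk (2.59 and -0.89). For the granzyme B inhibitor gene Serpinb9 the difference was 1.87 (0.33 and -1.53), and for the exocytosis gene Sytl3 it was 1.65 (1.07 and -0.58). For the transcription factor genes it was 4.09 for Zeb2 (0.56 and -3.53), 2.21 for Bhlhe40 (1.97 and -0.25) and 1.53 for Eomes (0.55 and -0.98). In each of the 7 the isotype IPF-LC library was lower than the isotype LC library. The choice by ratios of opposite sign used these same libraries, so this is not a separate result.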

How the results depend on the processing

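Each ratio rests on 1 library per group, so counting intervals are a lower limit of the error, and other scalings move all genes together. No library could be left out, since each group has 1. No paired analysis was possible because each group has 1 library. Of 350 single-gene values under other scalings, units, prior counts or rounding, 239 moved by less than their counting interval, 111 by more, and 0 that were at least 2-fold apart changed sign. For depletion in IPF-LC mice, the 2 genes at least 2-fold apart became 1 with library totals, 1 with TPM, 1 with the whole interval and 3 with Cd8a and Cd8b1, and the median of 0.05 became 0.61 on the scale of Cd8a and Cd8b1. For depletion in LC mice, the 3 genes became 5 on the T cell marker scale and 4 with Cd8a and Cd8b1, and the median of -0.69 became -0.75 with library totals, -0.94 with T cell markers, -0.82 with Cd8a and Cd8b1 and -0.78 with TPM. For the models with isotype antibody, the 2 genes became 3 with T cell markers and 3 with Cd8a and Cd8b1, and the median of -0.28 became -0.58 with T cell markers, -0.63 with Cd8a and Cd8b1 and -0.43 with TPM. After depletion, the 1 gene became 2 with Cd8a and Cd8b1 and 0 with the whole interval, and the median of 0.29 became 0.64 with Cd8a and Cd8b1. For the difference, the 3 genes became 2 with the whole interval, 4 with DESeq2 size factors, 4 with TPM, 5 with T cell markers and 8 with Cd8a and Cd8b1. In the additive depletion term, the 0 genes called by edgeR became 1 with DESeq2. The cause was not tested. At the minimum of 10 CPM, 10.1% of all genes were 2-fold apart after depletion in IPF-LC mice, and 22.4% and 4.33% at minimums of 1 and 50 CPM. In LC mice these shares were 8.43, 21.3 and 3.22%, between models 6.01, 16.99 and 1.76% with isotype antibody and 5.87, 17.2 and 1.01% after depletion, and for the difference 14.4, 28.5 and 5.67%.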
